A study of Homo sapiens with 24 samples.

Results

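The doxycycline response of 2 human cell lines was compared at 24 h, using all 12 arrays of that time out of 24 arrays in the series. Both lines carry the same inducible, HA-tagged YWHAE-NUTM2 fusion gene. HEK293 is a line from embryonic kidney, transformed with adenovirus DNA, and BJ-hTERT is a line of foreskin fibroblasts made immortal with telomerase. The 4 groups, with n = 3 arrays each, were HEK293 HA-YWHAE-NUTM2 cells with mock treatment, the same cells with doxycycline, BJ-hTERT HA-YWHAE-NUTM2 cells with mock treatment, and the same cells with doxycycline. Mock cells received water in place of doxycycline and carry the construct too. The 3 doxycycline arrays of HEK293 are titled HEK239, which was read as HEK293 from their cell line label. No fusion-free cells given doxycycline were analysed here, so an effect of doxycycline alone and an effect of the fusion cannot be told apart. Whether each line is 1 clone, and whether the replicates are separate cultures, is not stated in the labels, so a p-value here speaks of the spread among these arrays, which may be technical.

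YWHAE encodes 14-3-3 epsilon, an adaptor that binds phosphorylated proteins, and its fusion with NUTM2 genes occurs in endometrial stromal sarcoma and in a childhood kidney tumour, clear cell sarcoma. The study's title points to signalling and cell migration in the kidney tumour. Cell division genes of human cells are switched in groups: E2F sites mark many genes of DNA replication, and CHR and CCAAT elements mark many genes of G2 and mitosis, with E2F, RB, MuvB and MYB proteins acting on them.

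The line difference of a gene is the doxycycline change in BJ-hTERT minus the doxycycline change in HEK293, in log2 units of array intensity. A positive value means a higher change in BJ-hTERT. Each ± gives the standard error (SE) from limma. Called means an adjusted p below 0.05, by Benjamini-Hochberg over all 17329 genes tested. Levels are compared between lines only within a gene, since probe intensity differs between genes. Where the levels of a gene are given as 2 sets of 3 values for a line, the mock arrays come first and the doxycycline arrays second. The gene lists and their members were chosen with earlier results of these data known. A list's count beside the share over all genes is therefore a description and no test.

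The fusion partner rose in both lines, by sizes that were not distinguished. The array holds 32 tested probe sets for NUTM2 genes. Of these 7 rose in HEK293 (0.0417% of 268605 probe sets rose there) and 14 rose in BJ-hTERT (0.329%). The 7 rose in both lines, with a median change of 3.43 in HEK293 and 3.73 in BJ-hTERT. Their mean level was 5.17, 4.23 and 5.16 on the HEK293 mock arrays and 8.18, 8.33 and 8.35 on the doxycycline arrays. In BJ-hTERT the same mean was 5.28, 5.33 and 5.38 with mock treatment and 9.10, 9.04 and 9.30 with doxycycline. Mock and doxycycline arrays did not overlap in either line, and the BJ-hTERT doxycycline arrays were the highest. The 7 were chosen for a called rise in both lines on these arrays, so the lack of overlap follows largely from that choice. Of the other tested sets 7 rose in BJ-hTERT only, and the rest had no called rise in either line. The line difference was not called for any of the 32 (lowest adjusted p = 0.302, limma), with 5 at an unadjusted p under 0.05, against 338 called over all probe sets (0.126%). Over the 7 it ran from -0.79 to 1.04 with SEs of 0.457 to 0.896, so differences of these sizes were not detectable here. The count of 7 fell to 5 with only the 12 arrays of 24 h in the fit and to 2 with the replicate number as a block. Of the 7, 6 name several NUTM2 paralogs, which were not separated, and 1 names NUTM2B alone. YWHAE has no probe set under its own symbol alone and was not analysed here.

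**Figure D1:**
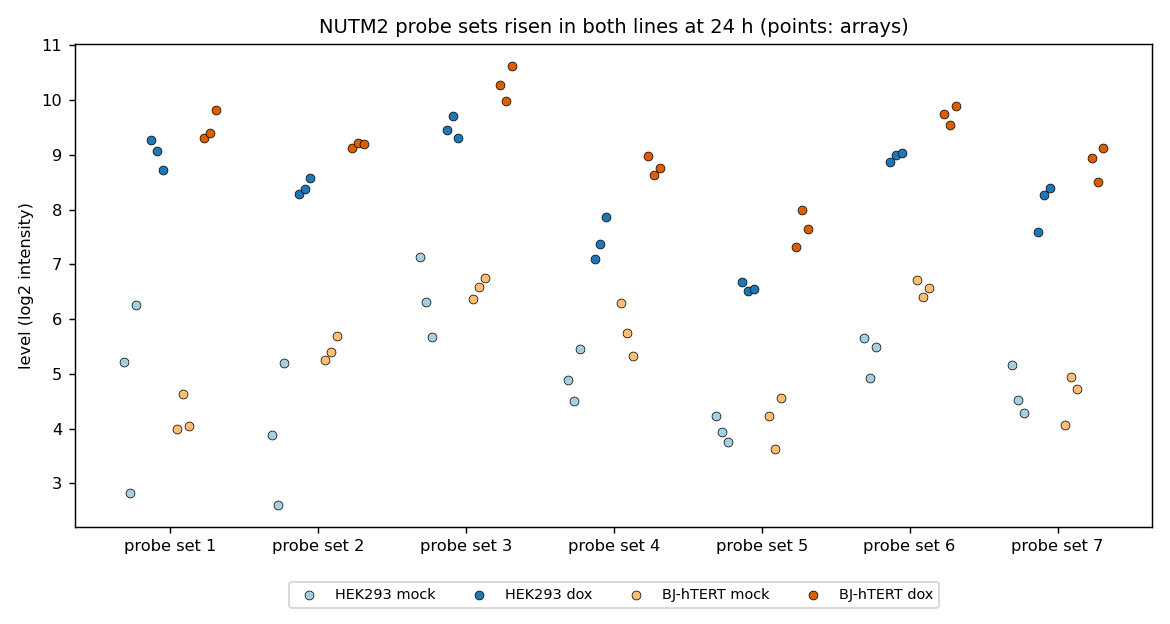
Level (log2 intensity, vertical axis) of the 7 NUTM2 probe sets that rose in both lines at 24 h, with 1 point per array and 3 arrays per group. The 7 were chosen for a called rise on these arrays, and in each the doxycycline points of a line lie above its mock points.

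The 2 lines answered doxycycline differently at many genes. The line difference was called for 821 genes (4.74% of 17329), and 3055 genes had an unadjusted p under 0.05. For 549 (3.17%) the BJ-hTERT change was the lower, with a median difference of -1.04, and for 272 (1.57%) it was the higher, with a median of 0.92. A difference of at least 2-fold was found for 299 and 112 of these. In HEK293 by itself 79 genes rose (0.456%) and 3 fell (0.0173%), and in BJ-hTERT 774 rose (4.47%) and 760 fell (4.39%).

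Most line differences came with a called change in BJ-hTERT alone. Of the 549 genes with the lower BJ-hTERT change, 436 (79.4%) had a called fall in BJ-hTERT only, 50 (9.11%) a called rise in HEK293 only, and 62 (11.3%) neither. Of the 272 with the higher BJ-hTERT change, 234 (86%) had a called rise in BJ-hTERT only, 36 (13.2%) neither, and 2 a called fall in HEK293 only. Seen from the other side, 51 of the 79 HEK293 rises were called for the line difference, as were 436 of the 760 BJ-hTERT falls and 234 of the 774 BJ-hTERT rises. Not one gene was called in opposite directions in the 2 lines. At 164 called genes, the 3 doxycycline arrays nevertheless lay wholly on one side of mock in one line and wholly on the other side in the other line, as they did at 321 of all genes tested. Arrays wholly above mock were seen for 8.47% of all genes in HEK293 and 14.4% in BJ-hTERT, and wholly below for 5.49% and 11.3%.

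**Figure D2:**
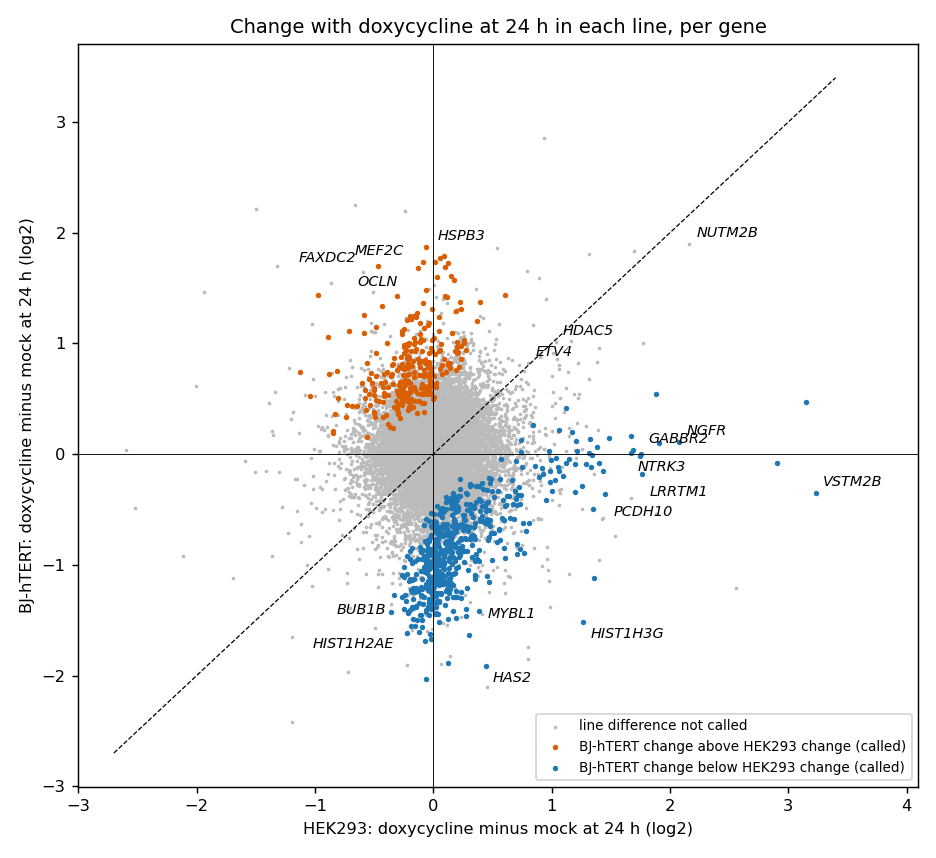
Change with doxycycline at 24 h in HEK293 (horizontal axis, log2) and in BJ-hTERT (vertical axis, log2), 1 point per gene tested, with equal changes on the dashed line. Genes called for a lower BJ-hTERT change (549, blue) form an arm downwards along the vertical axis and an arm to the right along the horizontal axis, and genes called for a higher BJ-hTERT change (272, orange) lie mostly above the horizontal axis.

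Some genes of synapses and receptors rose in HEK293: 4 of 22 synaptic genes and 3 of 24 receptor genes, against 0.456% of all genes. In BJ-hTERT 2 and 1 members of these lists rose, against 4.47% of all genes. VSTM2B, which encodes a membrane protein of the immunoglobulin family, had the largest called line difference in either direction. Its levels were 3.28, 3.27 and 2.48 on HEK293 mock arrays and 6.41, 6.38 and 5.94 with doxycycline, a rise of 3.23 ± 0.25 (9.4-fold). In BJ-hTERT they were 2.41, 2.44 and 3.03 with mock and 2.36, 1.78 and 2.69 with doxycycline. The HEK293 groups stood far apart, while the BJ-hTERT groups overlapped and both had means below 2.83, the value used to filter dim genes. The line difference was -3.58 ± 0.35 (adjusted p = 9.42e-06).

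NGFR encodes the low-affinity neurotrophin receptor p75. It stood at 3.71, 3.34 and 3.72 on HEK293 mock arrays and at 5.51, 5.80 and 5.69 with doxycycline, against 3.38, 3.78 and 3.21 and 3.53, 3.73 and 3.44 in BJ-hTERT. Only the HEK293 doxycycline arrays stood above the rest, with a line difference of -1.97 ± 0.30 (adjusted p = 0.000412). NTRK3, the receptor of neurotrophin-3, showed the same order, at 2.87, 2.99 and 3.04 with mock and 4.87, 4.46 and 4.57 with doxycycline in HEK293 and at 2.60, 2.73 and 2.52 and 2.82, 2.75 and 2.31 in BJ-hTERT. The BJ-hTERT groups overlapped and both had means below 2.83, and the line difference was -1.66 ± 0.23 (adjusted p = 0.000203). These were 2 of the 4 receptor tyrosine kinase and neurotrophin receptor genes called lower in BJ-hTERT, of 24 tested, with 0 called higher (3.17% and 1.57% of all genes). The list's median change was 0.24 in HEK293 and -0.02 in BJ-hTERT, where all genes tested had medians of 0.01 and 0.02. The NGFR call was lost when each gene took the median of its probe sets in place of their mean, although the value was the larger (-2.49, adjusted p = 0.0664), and the list then held 1 called member.

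Of 22 synaptic organisers and neurotransmitter receptors, 5 were called for a lower change in BJ-hTERT and 0 for a higher one, where 3.17% and 1.57% of all genes were. VSTM2B was among the 5, and the list was chosen with earlier results of these data known. GABBR2, a subunit of the GABA-B receptor, stood at 4.35, 4.34 and 4.67 and 6.03, 6.40 and 6.20 on the HEK293 mock and doxycycline arrays, and at 3.66, 3.48 and 3.86 and 3.58, 3.6 and 3.83 in BJ-hTERT. It rose in HEK293 by 1.76 ± 0.17 and its BJ-hTERT groups overlapped, giving a line difference of -1.75 ± 0.24 (adjusted p = 0.000174). The synapse adhesion gene LRRTM1 rose by 1.76 ± 0.24 in HEK293, from a mock mean below 2.83, and both BJ-hTERT means lay below it too. Only the HEK293 doxycycline group was thus above the filter value at 24 h, so the size of its line difference, -1.95 ± 0.34, is uncertain. ELFN1, another synaptic leucine-rich repeat gene, rose by 1.89 ± 0.19 in HEK293. In BJ-hTERT its change of 0.54 ± 0.19 was not called, although all 3 doxycycline arrays lay above mock, and the line difference was -1.34 ± 0.27. The list's median change was 0.07 in HEK293 and -0.06 in BJ-hTERT. The mean level of 14 HEK293 markers of kidney and neural-like kind moved beside these genes, lying between 5.57 and 5.72 on the HEK293 mock arrays and between 5.86 and 5.94 with doxycycline, and its part in the result was not tested.

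Of 20 cadherin and protocadherin genes tested, 2 rose in HEK293, PCDH10 and PCDH1, and 0 in BJ-hTERT (0.456% and 4.47% of all genes). PCDH10, a protocadherin, stood at 6.48, 6.65 and 6.31 with mock and 8.01, 7.90 and 7.88 with doxycycline in HEK293, a rise of 1.45 ± 0.13. In BJ-hTERT it was already higher, at 8.70, 8.71 and 8.88 with mock, and stood at 8.30, 8.38 and 8.54 with doxycycline. All BJ-hTERT doxycycline arrays lay below all mock arrays there, but that change of -0.36 ± 0.13 was not called. The 2 lines were thus closer with doxycycline at this gene, and the line difference was -1.81 ± 0.18 (adjusted p = 9.42e-06). PCDH1 rose by 1.69 ± 0.25 in HEK293 and changed by 0.04 ± 0.25 in BJ-hTERT, where both group means lay below 2.83. Its HEK293 mock mean was below that value too, so the size is uncertain, and its line difference call was lost with the median of probe sets (-1.83, adjusted p = 0.0879). For the line difference 3 of the 20 were called lower in BJ-hTERT (3.17% of all genes) and 0 higher, with a median change of 0.28 in HEK293 and -0.02 in BJ-hTERT.

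Of 26 BMP and TGF-beta genes 2 rose in HEK293, as did 2 of 20 growth factor ligands and 2 of 20 Notch genes (0.456% of all genes). In BJ-hTERT 1 member of each of these lists rose (4.47% of all genes). BMP6, a bone morphogenetic protein, stood at 6.58, 6.32 and 6.59 with mock and 7.88, 8.04 and 8.02 with doxycycline in HEK293, and at 2.57, 2.23 and 2.59 and 2.81, 2.41 and 2.60 in BJ-hTERT, where it lay below the filter value. NOG encodes noggin, which binds and blocks BMPs. It rose by 1.2 ± 0.18 in HEK293 and changed by -0.34 ± 0.18 in BJ-hTERT. The Notch ligand DNER rose by 1.33 ± 0.17 in HEK293, and its level stayed below that of BJ-hTERT, whose change was -0.12 ± 0.17. The line differences of BMP6, NOG and DNER were -1.34 ± 0.24, -1.54 ± 0.26 and -1.45 ± 0.24. FGF9, a fibroblast growth factor, rose by 1.0 ± 0.17 in HEK293 and changed by -0.33 ± 0.17 in BJ-hTERT, at levels below the filter value there.

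In HEK293, 3 of 24 genes of ERK feedback and ETS output, 3 of 24 matrix proteases and inhibitors and 1 of 15 neuronal cytoskeleton genes rose. That compares with 0.456% of all genes. In BJ-hTERT 4, 1 and 1 members of these lists rose, against 4.47% of all genes. DUSP4, a phosphatase that switches off ERK kinases, rose by 1.14 ± 0.20 in HEK293 and changed by -0.05 ± 0.20 in BJ-hTERT. IRS2, the insulin receptor substrate, rose by 0.70 ± 0.16 in HEK293, and its BJ-hTERT change of -0.46 ± 0.16 was not called, with a line difference of -1.17 ± 0.22. The microtubule protein gene MAPT (tau) stood at 5.04, 4.76 and 4.8 with mock and 6.04, 6.33 and 6.00 with doxycycline in HEK293, and at 3.98, 3.71 and 3.80 and 3.34, 3.39 and 3.89 in BJ-hTERT. HEK293 thus rose by 1.26 ± 0.17 without overlap, the BJ-hTERT groups overlapped, and the line difference was -1.55 ± 0.25 (adjusted p = 0.000592). NEFL, the light neurofilament gene, had a line difference of -1.18 ± 0.25 with changes of 0.73 ± 0.18 and -0.45 ± 0.18 that were called in neither line. Its BJ-hTERT means, 2.75 with mock and 2.30 with doxycycline, both lay below 2.83, so the size is uncertain. The secreted protease ADAMTS9 rose by 1.06 ± 0.16 in HEK293 and the membrane protease MMP15 by 0.98 ± 0.16, with line differences of -1.17 ± 0.23 and -0.96 ± 0.23. Both BJ-hTERT means of ADAMTS9 lay below 2.83. With the median of probe sets the line difference calls of FGF9, DUSP4, NEFL, ADAMTS9 and MMP15 were lost (adjusted p = 0.0528 to 0.221), while the values were -1.21, -1.70, -1.33, -1.49 and -1.22, of which only that of FGF9 was the smaller. The DUSP4 call was also lost with only the 12 arrays of 24 h (adjusted p = 0.0761).

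**Figure D3:**
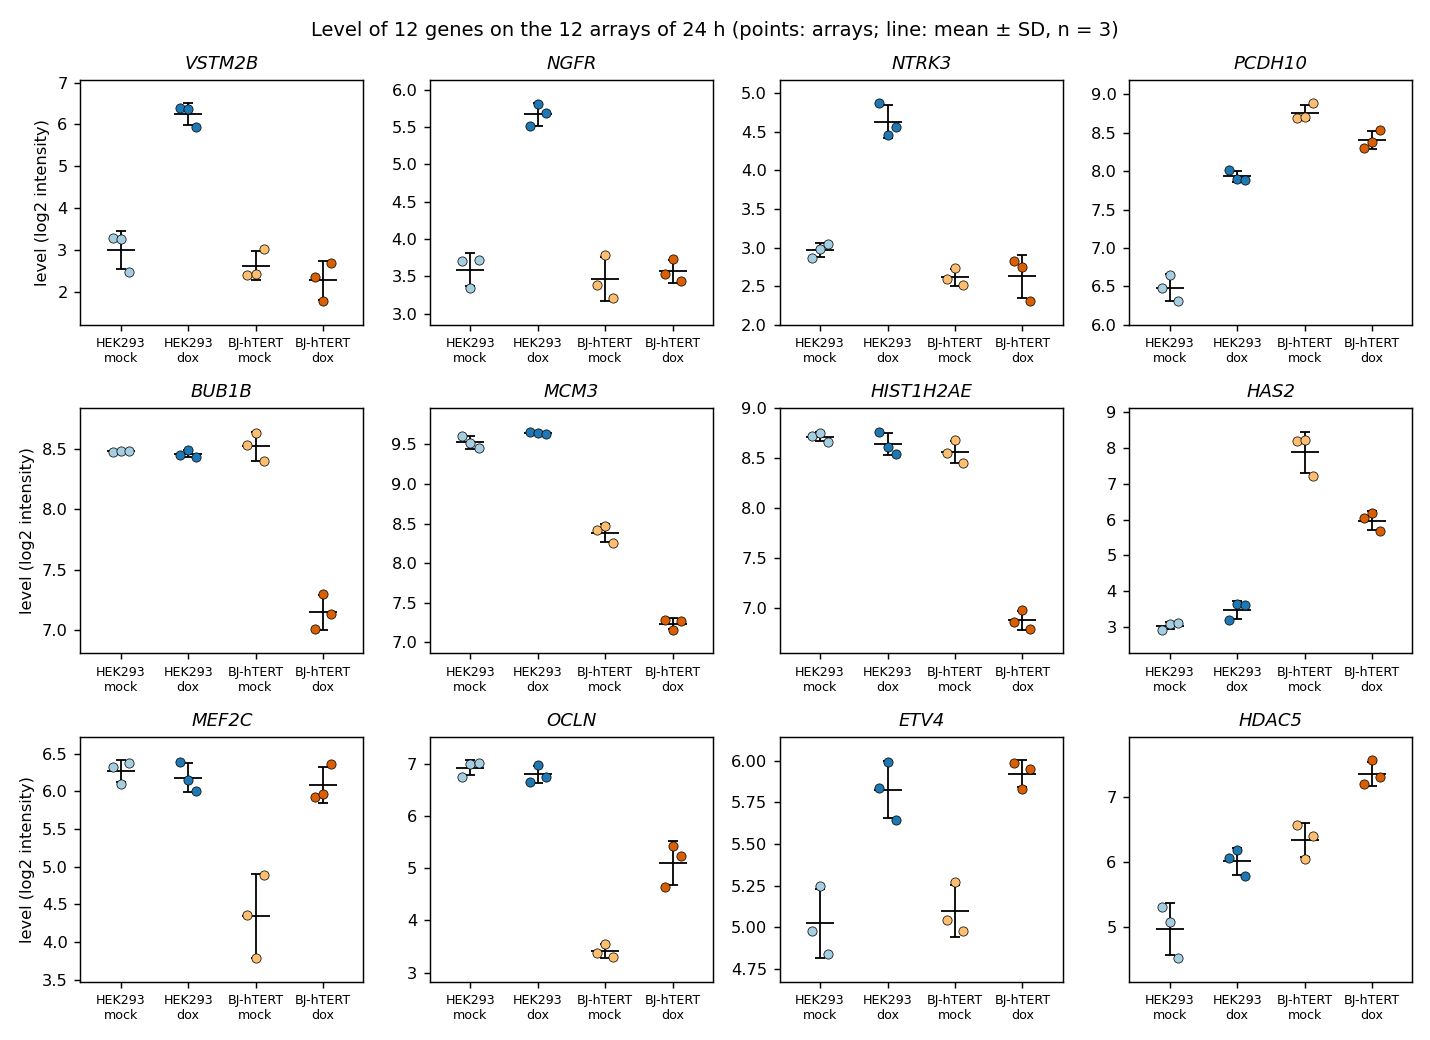
Level (log2 intensity, vertical axes with their own range) of 12 genes on the 12 arrays of 24 h, with 1 point per array and the mean and SD of each group of 3. The top row shows 4 genes higher with doxycycline in HEK293, the middle row 4 genes lower with doxycycline in BJ-hTERT, and the bottom row MEF2C and OCLN, higher in BJ-hTERT, beside ETV4 and HDAC5, higher in both lines.

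Genes of mitosis fell together in BJ-hTERT. All 40 tested genes of G2 and mitosis had a called fall in BJ-hTERT, from -0.56 to -1.44 with a median of -1.14, where 4.39% of all genes fell. In HEK293, 0 of the 40 were called in limma, 1 had an unadjusted p under 0.05, and their changes ran from -0.27 to 0.18. The line difference was called for 34 of the 40, all with the lower change in BJ-hTERT, against 3.17% of all genes. Its median over the list was -1.07. The mean level of the list was 8.41, 8.46 and 8.33 on the BJ-hTERT mock arrays and 7.18, 7.38 and 7.38 with doxycycline. In HEK293 it was 8.01, 8.02 and 8.09 with mock and 7.98, 8.0 and 7.97 with doxycycline. BJ-hTERT thus stood above HEK293 before doxycycline and below it after. In bulk RNA, fewer dividing cells and less RNA of these genes per cell cannot be told apart.

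BUB1B encodes a kinase of the spindle checkpoint. Its levels were 8.48, 8.49 and 8.49 with mock and 8.45, 8.50 and 8.44 with doxycycline in HEK293, and 8.54, 8.64 and 8.40 and 7.01, 7.30 and 7.13 in BJ-hTERT. Mock BJ-hTERT levels lay among or near those of HEK293, and only the BJ-hTERT doxycycline arrays stood apart, more than 1 log2 unit below, with a line difference of -1.36 ± 0.14 (adjusted p = 1.1e-05). PLK1, the polo-like kinase of mitotic entry, stood at 9.75, 9.95 and 9.86 and 9.89, 9.87 and 9.75 in HEK293 and at 10.09, 10.09 and 10.02 and 8.87, 8.91 and 8.92 in BJ-hTERT (line difference -1.15 ± 0.13, adjusted p = 3.3e-05). CCNA2, encoding cyclin A, fell from 10.09, 10.08 and 9.91 to 8.62, 8.82 and 8.91 in BJ-hTERT, a change of -1.25 ± 0.10 against 0.01 ± 0.10 in HEK293. The kinase gene AURKB, the spindle motor gene KIF11 and the topoisomerase gene TOP2A had line differences of -1.38 ± 0.17, -1.31 ± 0.17 and -1.13 ± 0.15. Outside the list, POLQ (a repair polymerase) changed by -1.40 ± 0.13 in BJ-hTERT and 0.28 ± 0.13 in HEK293, and BORA, an activator of Aurora A, by -1.48 ± 0.19 and 0.20 ± 0.19. The BORA line difference call was lost with the median of probe sets (-1.0, adjusted p = 0.221).

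Promoter sequences of the 3 mitosis genes with the smallest p are shown because the elements of cell cycle genes lie in such windows. They run from 250 bases before to 50 bases after the gene start (RefSeq, GRCh38.p14), 5′ to 3′ on the gene's strand, and are BUB1B at chr15:40160819-40161118 (plus strand), PLK1 at chr16:23678639-23678938 (plus) and CCNA2 at chr4:121823834-121824133 (minus). Capitals mark matches, on either strand, to the CHR element TTTGAA, the E2F motifs TTTCCCGC and TTTGGCGC and the box CCAAT, which reads ATTGG on the other strand.
BUB1B: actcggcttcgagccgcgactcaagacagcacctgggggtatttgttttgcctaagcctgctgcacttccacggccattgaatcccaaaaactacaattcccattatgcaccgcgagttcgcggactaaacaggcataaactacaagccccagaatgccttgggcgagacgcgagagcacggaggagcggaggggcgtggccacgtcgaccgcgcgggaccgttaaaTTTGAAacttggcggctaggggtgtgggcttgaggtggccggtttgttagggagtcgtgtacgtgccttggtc
PLK1: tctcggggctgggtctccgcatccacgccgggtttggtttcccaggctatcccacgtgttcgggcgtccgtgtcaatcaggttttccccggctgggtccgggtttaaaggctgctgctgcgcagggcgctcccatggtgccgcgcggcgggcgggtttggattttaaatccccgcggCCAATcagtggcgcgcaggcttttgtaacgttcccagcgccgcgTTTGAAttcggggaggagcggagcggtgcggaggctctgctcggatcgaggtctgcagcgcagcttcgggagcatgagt
CCNA2: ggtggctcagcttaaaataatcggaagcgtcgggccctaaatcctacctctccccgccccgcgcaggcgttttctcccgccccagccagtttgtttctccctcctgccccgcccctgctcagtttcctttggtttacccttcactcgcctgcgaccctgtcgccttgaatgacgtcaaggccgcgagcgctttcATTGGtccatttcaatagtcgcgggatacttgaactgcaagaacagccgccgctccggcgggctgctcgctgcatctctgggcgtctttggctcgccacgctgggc
BUB1B and PLK1 hold the CHR letters within 30 bases before the start, and PLK1 and CCNA2 a CCAAT box upstream. Of 35 listed genes with a promoter in the table, 25 hold TTTGAA (71.4%), against 15.4% of 27305 promoters, and 27 hold CCAAT (77.1%), against 35.7%. Only 2 (5.71%) hold 1 of the E2F motifs, against 2.31%. A match is a description of letters and no measure of binding.

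Genes of DNA replication and nucleotide synthesis fell in BJ-hTERT to a similar extent. Of 38 tested, 37 had a called fall in BJ-hTERT, where 4.39% of all genes fell. In HEK293 0 had a called change (limma, 2 at an unadjusted p under 0.05). For the line difference 29 were called, all lower in BJ-hTERT, against 3.17% of all genes. The list's median change was -0.99 in BJ-hTERT and 0.05 in HEK293. The mean level of the list was 7.21, 7.2 and 7.14 with mock and 6.21, 6.30 and 6.21 with doxycycline in BJ-hTERT, and in HEK293 7.69, 7.63 and 7.63 with mock and 7.70, 7.64 and 7.70 with doxycycline. All BJ-hTERT arrays were below HEK293, and doxycycline widened that gap.

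MCM3, a subunit of the replicative helicase, stood at 9.61, 9.52 and 9.45 with mock and 9.65, 9.65 and 9.63 with doxycycline in HEK293, and at 8.41, 8.47 and 8.26 and 7.28, 7.16 and 7.27 in BJ-hTERT. The HEK293 doxycycline arrays lay just above mock, by 0.12 ± 0.09 and not called, while BJ-hTERT changed by -1.14 ± 0.09. Its line difference of -1.26 ± 0.13 had an adjusted p of 1.04e-05. TYMS, thymidylate synthase, fell from 9.55, 9.65 and 9.38 to 8.44, 8.37 and 8.44 in BJ-hTERT and stood between 9.65 and 10.00 on all HEK293 arrays (line difference -1.17 ± 0.15). The helicase genes MCM6, MCM7 and MCM2 had line differences of -1.15 ± 0.15, -1.24 ± 0.17 and -1.21 ± 0.17, and RFC3, a clamp loader subunit, of -1.15 ± 0.17. With the median of probe sets the calls of MCM6 (-0.69, adjusted p = 0.117) and RFC3 (-1.14, adjusted p = 0.077) were lost. CAD, the enzyme that starts pyrimidine synthesis, changed by -0.60 ± 0.13 in BJ-hTERT and by 0.27 ± 0.13 in HEK293.

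Promoters of the 3 replication genes chosen in the same way carry E2F letters in place of the CHR element. They are MCM3 at chr6:52284693-52284992 (minus strand), TYMS at chr18:657403-657702 (plus) and MCM6 at chr2:135876394-135876693 (minus), with capitals as above and GCGGGAAA as the other strand of TTTCCCGC.
MCM3: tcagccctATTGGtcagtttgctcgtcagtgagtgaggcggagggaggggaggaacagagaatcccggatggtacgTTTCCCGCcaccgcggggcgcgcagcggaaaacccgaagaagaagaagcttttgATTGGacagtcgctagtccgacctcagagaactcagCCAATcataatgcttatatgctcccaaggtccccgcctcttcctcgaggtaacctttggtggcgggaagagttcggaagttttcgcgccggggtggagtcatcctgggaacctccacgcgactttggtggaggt
TYMS: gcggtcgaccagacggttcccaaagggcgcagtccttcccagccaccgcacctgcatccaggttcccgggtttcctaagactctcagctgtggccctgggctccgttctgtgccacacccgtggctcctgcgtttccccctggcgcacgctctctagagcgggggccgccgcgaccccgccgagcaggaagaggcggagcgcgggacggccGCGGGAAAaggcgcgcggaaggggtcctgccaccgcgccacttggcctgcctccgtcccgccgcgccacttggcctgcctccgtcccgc
MCM6: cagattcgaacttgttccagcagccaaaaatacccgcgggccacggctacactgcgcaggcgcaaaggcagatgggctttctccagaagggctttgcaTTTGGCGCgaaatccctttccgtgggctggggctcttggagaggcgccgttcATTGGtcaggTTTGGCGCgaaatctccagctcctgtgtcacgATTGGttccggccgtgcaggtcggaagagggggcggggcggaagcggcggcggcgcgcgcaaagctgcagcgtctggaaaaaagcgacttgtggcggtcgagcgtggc
Of 33 listed replication genes with a promoter in the table, 16 hold 1 of the E2F motifs (48.5%), 18 hold CCAAT (54.5%) and 1 holds TTTGAA (3.03%). No match to a motif says only that these letters are not in this window.

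Regulators of the cell cycle fell in part. Of 31 cyclins, CDK inhibitors, E2F and RB family genes, 12 had a called fall in BJ-hTERT, where 4.39% of all genes fell. For the line difference 9 were called lower in BJ-hTERT and 0 higher (3.17% and 1.57% of all genes). The list's median change was -0.29 in BJ-hTERT and 0.07 in HEK293. E2F8, a repressing E2F factor, stood at 6.02, 6.31 and 5.98 with mock and 6.24, 5.97 and 6.25 with doxycycline in HEK293, and at 6.15, 6.03 and 5.86 and 4.87, 4.76 and 4.94 in BJ-hTERT. Mock levels of both lines overlapped, and the BJ-hTERT doxycycline arrays lay about 1 log2 unit below them (line difference -1.21 ± 0.20, adjusted p = 0.000831). E2F7, its close relative, had a line difference of -0.90 ± 0.20. LIN9 is the MuvB subunit named for its worm counterpart, MYBL2 encodes the B-MYB activator of mitotic genes and RBL1 the RB relative p107. Their line differences were -1.0 ± 0.20, -0.90 ± 0.17 and -1.06 ± 0.19. MYBL1, the A-MYB gene, fell by more, from 8.96, 8.78 and 8.73 to 7.62, 7.52 and 7.08 in BJ-hTERT, and stood at 5.72, 5.48 and 5.68 and 5.89, 6.08 and 6.05 in HEK293. Its line difference was -1.80 ± 0.21 (adjusted p = 4.33e-05), and the uncalled HEK293 change of 0.38 ± 0.15 had all doxycycline arrays above mock. With the median of probe sets the values of RBL1 and MYBL2 shrank to -0.41 and -0.58 and their calls were lost (adjusted p = 0.461 and 0.385), and with the replicate number as a block that of E2F7 (adjusted p = 0.0617).

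Replication-dependent histone genes, which are transcribed in S phase, gave some of the largest differences. Of 28 tested, 18 had a called fall in BJ-hTERT, where 4.39% of all genes fell. In HEK293 0 had a called change (limma, 2 at an unadjusted p under 0.05). For the line difference 14 were called, all lower in BJ-hTERT, against 3.17% of all genes. The mean level of the list was 7.62, 7.64 and 7.59 with mock and 6.48, 6.45 and 6.46 with doxycycline in BJ-hTERT, against 6.01, 6.09 and 5.95 with mock and 6.12, 6.03 and 6.02 with doxycycline in HEK293. HIST1H2AE (now H2AC8) stood at 8.73, 8.75 and 8.66 and 8.76, 8.62 and 8.55 in HEK293 and at 8.56, 8.68 and 8.46 and 6.86, 6.97 and 6.79 in BJ-hTERT, with a line difference of -1.62 ± 0.15 (adjusted p = 7.34e-06). HIST1H4D (now H4C4) and HIST1H2AB (now H2AC4) had line differences of -1.59 ± 0.15 and -1.65 ± 0.17. Copies of histone genes are nearly identical, so the signal of each is uncertain.

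For 2 histone genes the difference rests on a gene that HEK293 hardly shows. HIST1H3G (now H3C8) stood at 10.22, 10.26 and 10.17 with mock and 8.53, 8.85 and 8.74 with doxycycline in BJ-hTERT, and at 0.96, 1.85 and 1.01 and 3.07, 1.42 and 3.13 in HEK293. Its line difference of -2.78 ± 0.45 includes an uncalled HEK293 change of 1.26 ± 0.32 between group means below 2.83, so the size is uncertain. HIST1H2BB (now H2BC3) fell from 8.52, 8.47 and 8.73 to 6.74, 6.81 and 6.52 in BJ-hTERT and had both HEK293 means below 2.83, with a line difference of -2.01 ± 0.37.

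Among the other genes that fell in BJ-hTERT were a matrix enzyme, a transcription factor and several signals. HAS2, hyaluronan synthase, stood at 8.21, 8.22 and 7.22 with mock and 6.04, 6.19 and 5.69 with doxycycline in BJ-hTERT, and at 2.93, 3.08 and 3.11 and 3.18, 3.64 and 3.62 in HEK293. The line difference of -2.35 ± 0.43 (adjusted p = 0.00217) joins a called fall of BJ-hTERT, -1.91 ± 0.31, to an uncalled HEK293 change of 0.44 ± 0.31 whose arrays all lay above mock. FOSL1, an AP-1 factor and ERK target, stood at 8.59, 8.87 and 9.0 with mock and 7.82, 7.67 and 7.57 with doxycycline in BJ-hTERT, and at 4.5, 4.03 and 3.85 and 4.16, 4.52 and 4.75 in HEK293, where the groups overlapped. Its line difference was -1.48 ± 0.24 (adjusted p = 0.000755). NRG1, the ErbB ligand neuregulin, changed by -0.96 ± 0.16 in BJ-hTERT and 0.49 ± 0.16 in HEK293, and EPHA2, an ephrin receptor, by -0.65 ± 0.14 and 0.26 ± 0.14. FST, which encodes the activin inhibitor follistatin, changed by -0.95 ± 0.19 in BJ-hTERT and 0.37 ± 0.19 in HEK293. TGFB2, transforming growth factor beta 2, fell in BJ-hTERT from 7.47, 7.82 and 7.77 to 7.18, 7.38 and 7.08, and in HEK293 its doxycycline arrays (4.94, 4.71 and 4.99) lay above mock (4.54, 4.26 and 4.02) with a change of 0.61 ± 0.14 that just missed the call (adjusted p = 0.0535). The line difference of TGFB2 was -1.08 ± 0.19. With the median of probe sets the calls of EPHA2 and FST were lost at values of -1.34 and -1.16 (adjusted p = 0.103 and 0.077), that of EPHA2 also with only the 12 arrays of 24 h (0.0615).

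Genes called in BJ-hTERT alone, as rises, included MEF2C, OCLN, UST and ITPR1. MEF2C, a transcription factor of muscle and nerve, stood at 4.36, 3.79 and 4.89 with mock and 5.92, 5.96 and 6.36 with doxycycline in BJ-hTERT, and at 6.32, 6.10 and 6.37 and 6.39, 6.15 and 6.00 in HEK293. With the BJ-hTERT rise of 1.74 ± 0.20 the doxycycline arrays of both lines overlapped, the HEK293 change was not called, and the line difference was 1.82 ± 0.29 (adjusted p = 0.000577). HSPB3, a small heat shock protein gene of muscle, rose by 1.87 ± 0.26 in BJ-hTERT and lay below 2.83 in both HEK293 groups (line difference 1.93 ± 0.37). Of 13 tested class IIa HDAC, MEF2 and muscle genes, 5 rose in BJ-hTERT and 1 in HEK293 (4.47% and 0.456% of all genes). For the line difference MEF2C and HSPB3 were the 2 called higher (1.57% of all genes), with 0 called lower.

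OCLN encodes occludin, a tight junction protein. It stood at 3.38, 3.56 and 3.30 with mock and 4.63, 5.43 and 5.23 with doxycycline in BJ-hTERT, and at 6.75, 7.0 and 7.0 and 6.65, 6.98 and 6.75 in HEK293. BJ-hTERT rose by 1.69 ± 0.19 and stayed below HEK293, with a line difference of 1.81 ± 0.26 (adjusted p = 0.000293). JUP, plakoglobin of the junctions, showed the same order: it rose by 1.11 ± 0.19 in BJ-hTERT from 4.84, 4.64 and 5.17 to 6.00, 5.68 and 6.31, below the HEK293 doxycycline arrays at 7.15, 6.86 and 6.68. Of 23 tight junction and desmosome genes 2 rose in BJ-hTERT and 0 in HEK293 (4.47% and 0.456% of all genes). For the line difference 3 were called higher in BJ-hTERT (1.57% of all genes) and 0 lower, while the list's median change was 0.02 in BJ-hTERT and -0.02 in HEK293.

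UST, a sulfotransferase of chondroitin and dermatan sulfate, rose past its HEK293 level. It stood at 6.00, 6.13 and 6.63 with mock and 7.95, 7.97 and 8.20 with doxycycline in BJ-hTERT, and at 7.63, 7.48 and 7.36 and 7.55, 7.69 and 7.5 in HEK293, so that all mock arrays of BJ-hTERT were below HEK293 and all doxycycline arrays above (line difference 1.70 ± 0.20, adjusted p = 4.33e-05). ITPR1, a calcium channel of the endoplasmic reticulum, stood at 3.65, 3.54 and 3.20 and 5.09, 5.01 and 4.74 in BJ-hTERT and between 5.62 and 5.77 on all HEK293 arrays. It rose in BJ-hTERT without reaching HEK293, with a line difference of 1.55 ± 0.18. TCP11L2, the sodium-proton exchanger gene SLC9A9 and the phospholipid transporter gene ABCB4 rose by 1.74 ± 0.19, 1.60 ± 0.18 and 1.73 ± 0.23 in BJ-hTERT against 0.01 ± 0.19, 0.03 ± 0.18 and 0.13 ± 0.23 in HEK293. FAXDC2, an enzyme gene of the fatty acid hydroxylase family, had 4.70, 4.05 and 4.66 and 6.09, 6.18 and 6.26 in BJ-hTERT and 4.40, 4.20 and 4.20 and 3.91, 3.13 and 4.38 in HEK293, a line difference of 2.17 ± 0.31. The monocarboxylate transporter gene SLC16A4 had one of 1.77 ± 0.31. The calls of FAXDC2, SLC16A4 and ABCB4 were lost with the median of probe sets, at values of 2.02, 2.04 and 0.98 (adjusted p = 0.248, 0.0641 and 0.598).

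Further BJ-hTERT rises were found in the FOXO and quiescence (5 of 20), hypoxia-responsive (4 of 27) and Hedgehog (1 of 13) lists. Over all genes 4.47% rose there, and 1 of 13 is close to that share. Other lists held similar counts, such as HOX (6 of 35), integrins and focal adhesion (4 of 27) and sterol and fatty acid synthesis (4 of 27). KLF9, a zinc finger factor, stood at 4.44, 4.47 and 5.29 with mock and 5.90, 6.02 and 6.00 with doxycycline in BJ-hTERT, and at 6.37, 6.64 and 6.19 and 6.37, 6.33 and 6.66 in HEK293. FOXO1, a factor restrained by insulin signalling, rose by 1.14 ± 0.21 in BJ-hTERT from 3.32, 3.89 and 3.58 to 4.56, 4.74 and 4.92. The BJ-hTERT groups were apart at both genes and the HEK293 groups overlapped, with line differences of 1.19 ± 0.25 and 1.22 ± 0.29. The FOXO1 call was lost without the third HEK293 doxycycline array (adjusted p = 0.0512), without the first BJ-hTERT mock array (0.054) and by probe set medians (0.091, at a larger value of 1.56). The KLF9 call was lost with only the 12 arrays of 24 h (0.058). Of 20 FOXO and quiescence genes 3 were called for a higher and 2 for a lower change in BJ-hTERT (1.57% and 3.17% of all genes). NDRG1, a gene known to rise in hypoxia, rose by 1.42 ± 0.16 in BJ-hTERT (line difference 1.3 ± 0.22). It was the only one of 27 hypoxia-responsive genes called for the line difference, against 1.57% of all genes called higher. In BJ-hTERT 4 of the 27 rose. PTCH1, the Hedgehog receptor and target, rose by 1.32 ± 0.17 in BJ-hTERT from 3.97, 4.45 and 4.38 to 5.56, 5.46 and 5.72. HEK293 levels were 6.23, 6.41 and 6.86 with mock and 6.82, 6.64 and 6.75 with doxycycline. PTCH1 was the only one of 13 Hedgehog genes called for the line difference, against 1.57% of all genes called higher. ITGB8, an integrin subunit that activates latent TGF-beta, rose by 1.31 ± 0.17 in BJ-hTERT and changed by -0.01 ± 0.17 in HEK293.

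Neuronal genes appeared on both sides. MAP2, a microtubule protein of dendrites, changed by 0.94 ± 0.16 in BJ-hTERT and by -0.24 ± 0.16 in HEK293 (line difference 1.18 ± 0.23), in the opposite direction to MAPT and NEFL. The BJ-hTERT means of NEFL lay below 2.83. LPPR4 (now PLPPR4), a brain phosphatase-related gene, rose by 1.09 ± 0.20 in BJ-hTERT, with HEK293 group means below 2.83. The call of MAP2 was lost with the median of probe sets (0.89, adjusted p = 0.176).

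Outside the cell cycle lists, no list held more than 5 members called for the line difference. Over all genes tested 1.57% were called higher and 3.17% lower, and several of these lists lay above those shares. Of 24 genes of ERK feedback and ETS output, 2 were called higher and 3 lower in BJ-hTERT, and of 22 immediate early genes 1 was called in each direction. Of 38 collagen and matrix genes 1 was called higher and 2 lower, of 27 integrin and focal adhesion genes 3 were higher and 0 lower, and of 24 matrix proteases and inhibitors 0 were higher and 2 lower. Of 26 BMP and TGF-beta genes 1 was called higher and 4 lower, the latter being BMP6, NOG, FST and TGFB2. The 35 HOX genes held 3 called higher and 0 lower, the 34 ATF4 and amino acid response genes 0 and 4, and the 31 ribosome biogenesis and MYC target genes 0 and 5. Counts of up to 5 called members moved with the settings: with only the 12 arrays of 24 h, 1 of the ribosome biogenesis genes was called lower and 1 HOX gene higher, and with 1 array left out the ATF4 list held 0 to 7 called lower. The interferon-stimulated, contractile, BCL2 family and nuclear OXPHOS lists and the 14-3-3 genes had 0 members called for the line difference in limma, with 7 of 27, 1 of 18, 4 of 16, 5 of 36 and 0 of 6 at an unadjusted p under 0.05. Of 18 sarcoma marker genes 4 were called lower and 1 higher in BJ-hTERT, NTRK3 and NGFR being among the lower. In mitosis, replication and histones, the called counts stood between 25 and 35, 23 and 33, and 12 and 16 over the other settings that kept all 3 replicates, and between 29 and 35, 26 and 29, and 13 and 14 with 1 array left out.

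**Figure D4:**
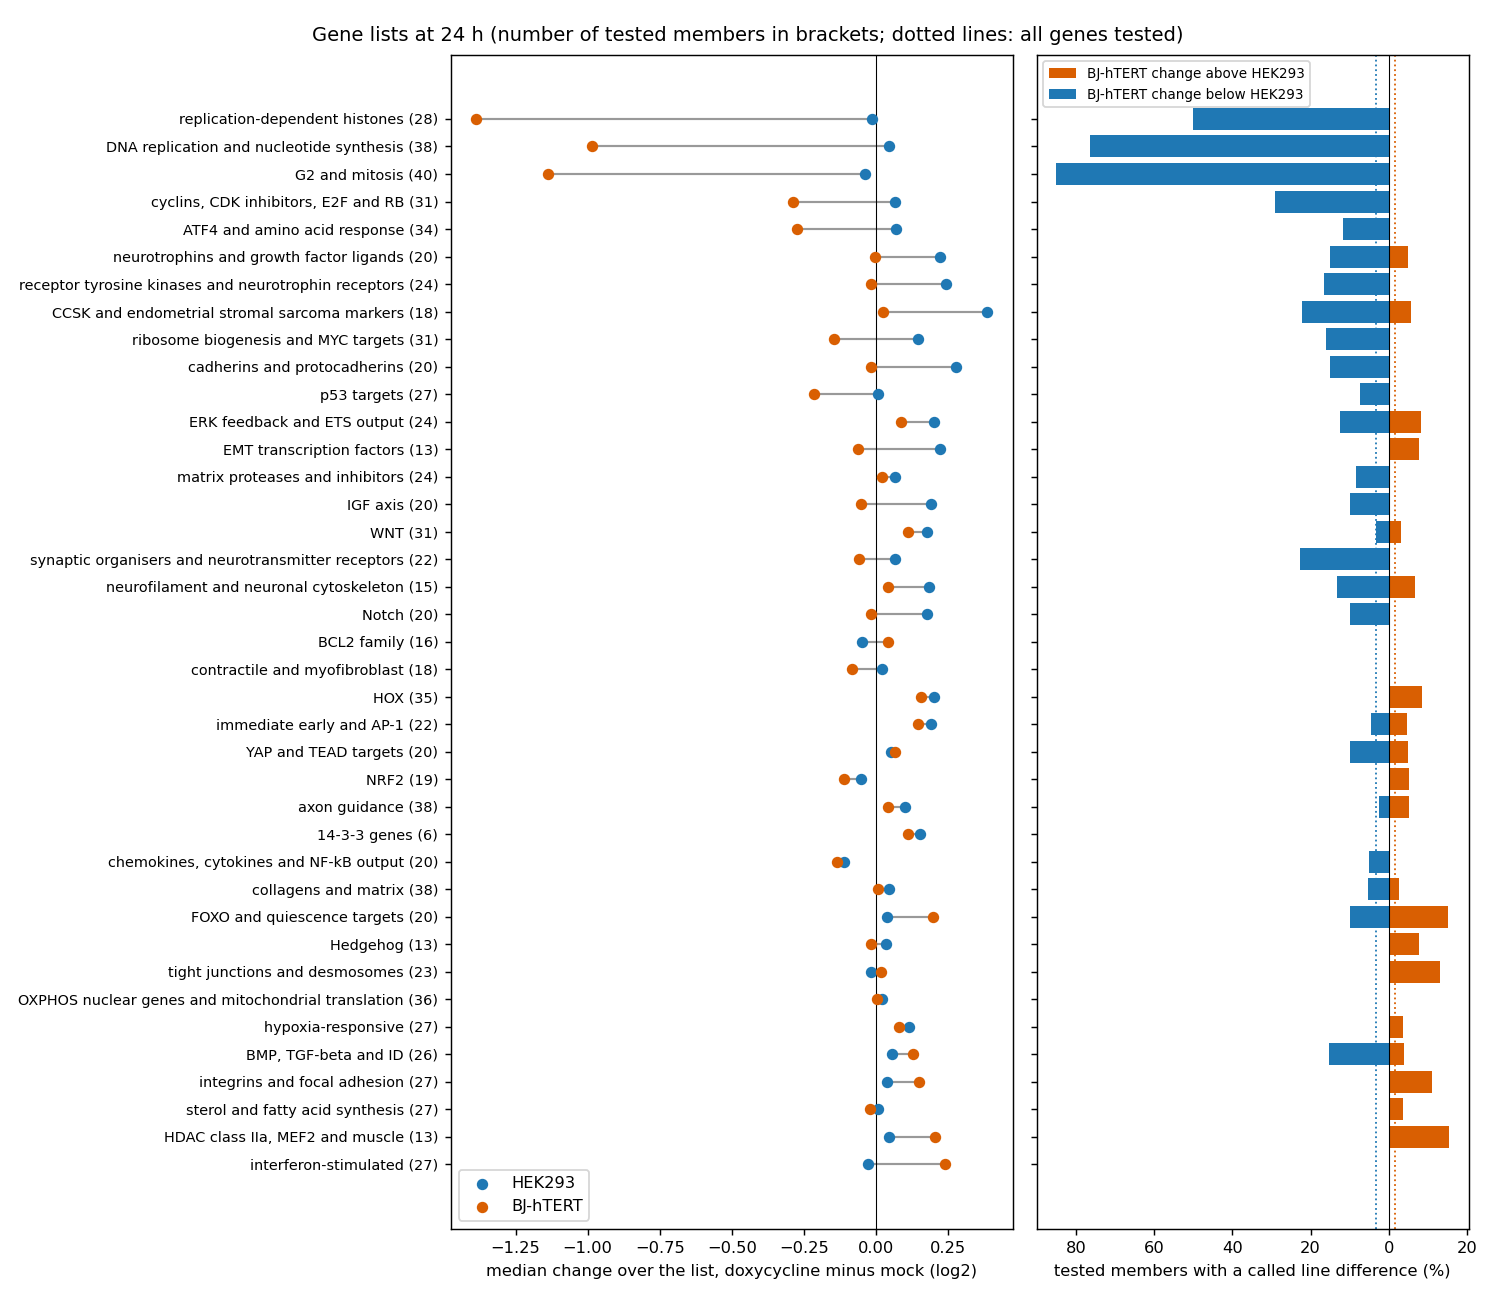
Left, median change with doxycycline (log2, horizontal axis) over the tested members of each list in HEK293 and BJ-hTERT. Right, share of tested members (%) with a called line difference, the BJ-hTERT change below HEK293 to the left and above to the right, with the shares over all genes tested as dotted lines (3.17% and 1.57%). The histone, replication and mitosis lists are at the top, with BJ-hTERT medians of -1.39, -0.99 and -1.14.

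A small set of genes rose in both lines. At 7 genes a called change was found in both, all of them rises. HDAC5, a class IIa histone deacetylase, stood at 5.32, 5.08 and 4.53 with mock and 6.05, 6.18 and 5.79 with doxycycline in HEK293, and at 6.57, 6.05 and 6.40 and 7.19, 7.56 and 7.31 in BJ-hTERT. The rises were 1.04 ± 0.21 and 1.01 ± 0.21, and the line difference of -0.02 ± 0.29 has a 95% interval of -0.63 to 0.59. ETV4, an ETS factor downstream of ERK, rose by 0.80 ± 0.13 in HEK293 and 0.82 ± 0.13 in BJ-hTERT, with a line difference of 0.02 ± 0.18 and a 95% interval of -0.36 to 0.40. SOCS2, a feedback inhibitor of cytokine signalling, rose by 0.73 ± 0.16 and 0.61 ± 0.16 (interval of the difference -0.59 to 0.35), and NUTM2B, 1 of the NUTM2 paralogs, by 2.17 ± 0.29 and 1.90 ± 0.29 (-1.13 to 0.60). The intervals of all 4 include 0, and they leave room for unequal rises of those sizes. The NUTM2B mean includes a dim probe set, with group means of 1.32 to 3.10 and changes of 1.05 in HEK293 and -1.41 in BJ-hTERT. Its other probe sets rose by 2.95 and 2.50 in HEK293 and by 4.09 and 3.01 in BJ-hTERT. The NUTM2B signal may be that of the induced fusion gene itself. IGDCC3 and KLHL29 rose by 1.01 ± 0.17 and 0.76 ± 0.15 in HEK293 and by 0.56 ± 0.17 and 0.50 ± 0.15 in BJ-hTERT. FSCN1, which encodes the actin bundler fascin, was the only one of the 7 called for the line difference. It rose from 8.21, 8.21 and 8.35 to 9.29, 9.37 and 9.47 in HEK293 and from 9.14, 9.29 and 9.27 to 9.62, 9.51 and 9.83 in BJ-hTERT, so BJ-hTERT mock cells already stood near the HEK293 doxycycline level. Its line difference was -0.70 ± 0.17 (adjusted p = 0.0148), and this call was lost with only the 12 arrays of 24 h (adjusted p = 0.0575).

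The starting levels of the lines differed at many of these genes. Of the 272 genes with the higher BJ-hTERT change, 176 (64.7%) had a lower mock mean in BJ-hTERT than in HEK293, and of the 549 with the lower change 260 (47.4%) did, against 53.8% of all genes tested. The lines were closer with doxycycline than with mock at 117 of the 272 (43%) and 170 of the 549 (31%), against 45.6% of all genes. The same arrays chose these genes, so the shares are descriptions. At 69 of the 821 called genes both means of just 1 line lay below the filter value, as they did at 2406 of the 17329 genes tested. A fall could hardly be seen in that line.

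At 72 h the line difference had the same sign at 770 of the 821 genes (93.8%), on arrays that share none with 24 h. It was called at both times for 334 genes, which is 40.7% of the 821 and 36.5% of the 914 called at 72 h (5.27%, 2.42% higher and 2.85% lower in BJ-hTERT), and in opposite directions for 0. The median at 72 h was 0.56 over the 272 genes and -0.66 over the 549, smaller than at 24 h, as values chosen for their size at 24 h tend to be. The change of the line difference between times was called for 0 genes in limma (0%), with 1395 at an unadjusted p under 0.05.

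Among the HEK293 rises, VSTM2B had -3.58 ± 0.35 at 24 h and -3.87 ± 0.35 at 72 h, and NTRK3 -1.66 ± 0.23 and -1.73 ± 0.23. GABBR2 had -1.75 ± 0.24 and -2.59 ± 0.24, HAS2 -2.35 ± 0.43 and -3.03 ± 0.43 and FOSL1 -1.48 ± 0.24 and -2.42 ± 0.24, all with the larger value at 72 h. The smaller value stood at 72 h for BUB1B (-1.36 ± 0.14 and -0.80 ± 0.14), MCM3 (-1.26 ± 0.13 and -0.87 ± 0.13) and HIST1H2BB (-2.01 ± 0.37 and -0.84 ± 0.37). ETV4, with almost equal rises at 24 h, had a line difference of -1.07 ± 0.18 at 72 h (adjusted p = 0.00138). MMP15 went from -0.96 ± 0.23 to 0.09 ± 0.23. None of these changes between times passed the test over all genes. Of the 40 mitosis genes 26 were called lower in BJ-hTERT at 72 h, of the 38 replication genes 24, and of the 28 histone genes 14, with 1 histone gene called higher.

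**Figure D5:**
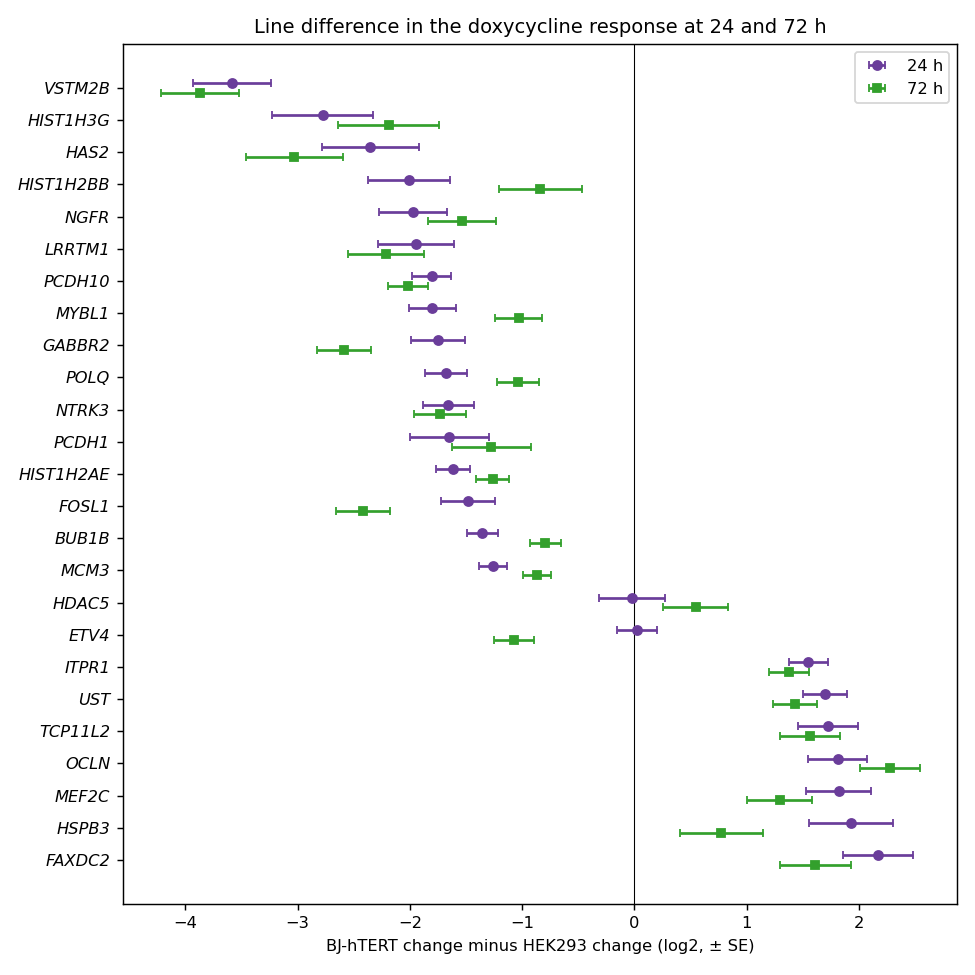
Line difference (BJ-hTERT change minus HEK293 change, log2, with SE) at 24 h and at 72 h for 25 genes of the text. The points of VSTM2B lie at -3.58 and -3.87, and all genes drawn except ETV4 and HDAC5 have the same sign at both times.

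The cells carried most of the markers of their lines, but many of these reached the filter value in the other line too. With mock treatment 13 of 14 fibroblast markers reached it in BJ-hTERT and 8 in HEK293. Of 14 HEK293 markers 10 reached it in HEK293 and 8 in BJ-hTERT. The mean level of 14 fibroblast markers was 7.23 to 7.56 on the BJ-hTERT arrays and 3.10 to 3.26 on HEK293, and that of 14 kidney and neural-like HEK293 markers 5.57 to 5.94 on HEK293 and 3.61 to 3.85 on BJ-hTERT. Not every member followed its list. With mock treatment CDH2 (9.13 against 8.46), DPPA4 and LIN28A were higher in BJ-hTERT, and POSTN was higher in HEK293. The mean levels of the keratinocyte and melanocyte list and the endothelial and leukocyte list stayed between 2.18 and 2.72 on all 12 arrays, below the filter value. Single members lay above it, such as SFN in HEK293 (group means of 5.27 and 5.57) and CD79A (3.54 to 3.97 over the 4 groups). Array correlations across genes were 0.974 to 0.980 within groups, 0.964 to 0.976 between the groups of a line and 0.784 to 0.800 between lines (genes are not independent replicates), and array medians spanned 0.137 log2. The median SE of a line difference was 0.267, against 0.189 for the effect in 1 line, and the number of arrays limits precision.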

How the data were processed

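The series holds 24 Affymetrix Human Gene 2.1 ST arrays, 1 per RNA sample, of which the 12 of 24 h give the comparison and the 12 of 72 h enter the fit and the comparison of times. The authors deposited log2 intensities per probe set, which the submitters' processing notes credit to GCOS, RMA and Affymetrix Expression Console, with no versions. Oligo and limma are named in the study's design text. The sources used here do not give the build, the library file of the array or the set of arrays that RMA was run on.

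Of 352859 probe sets, 257971 listed 1 gene symbol. Their log2 values were averaged within each of 25029 genes (median 8 per gene), and 17460 with several symbols and 77428 without a gene were left out. Symbols were matched to RefSeq: 23358 were current, 1621 were updated and 50 were not matched. A gene was kept if any group mean was at or above log2 2.83, the 40th percentile of all of them, which left 17329 and removed 7700. A linear model with 8 group means was fitted on 24 arrays with limma 3.58.1 in R 4.3.3, with eBayes and Benjamini-Hochberg adjustment over all genes tested. NUTM2 probe sets came from the same fit over 268605 probe sets. The procedure was tested on simulated data.

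Groups came from the labels. Same-numbered mock and doxycycline arrays of a line and time did not deviate together across genes (r from -0.0252 to 0.086). That cannot exclude that the numbers mark pairs, and the main fit used no pairing. Genes were named as the 15 largest called line differences in each direction with at least 2 probe sets, in each list the 6 members of smallest p, genes with a called effect in each line, and called genes that were dim in 1 line. Of these, those printed are a choice made after the values were seen. The members and lists were chosen with earlier results of these data known. Promoters are from RefSeq (GRCh38.p14).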

Additional observations from a re-analysis of the deposited data

Results flagged for a closer look

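Of the genes named in the text, 69 were called for the line difference by the interaction term in limma. At 13 of these, all 3 doxycycline arrays lay above mock in 1 line and below mock in the other. The same was seen at 164 of the 821 called genes and at 321 of the 17329 tested. Choosing genes by their line difference on these arrays favours such a pattern, so the count is a description. Most of the HEK293 changes were small and not called. At 11 genes HEK293 lay above mock and BJ-hTERT below. Their line differences were -2.35 for HAS2, -1.81 for PCDH10, -1.80 for MYBL1, -1.68 for POLQ, -1.45 for NRG1, -1.26 for MCM3, -1.17 for IRS2, -1.15 for MCM6, -1.08 for TGFB2, -0.91 for EPHA2 and -0.86 for CAD. At MAP2 (1.18) and LPPR4 (1.68) HEK293 lay below mock and BJ-hTERT above. In HEK293 the change passed the test at PCDH10 and IRS2, and in BJ-hTERT it passed at all of the 13 except PCDH10 and IRS2.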

How the results depend on the processing

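The line difference called 821 genes, 272 higher and 549 lower in BJ-hTERT. With only the 12 arrays of 24 h it called 500 (135 and 365), and 46 genes were called in HEK293 against 82. Taking probe set medians per gene, it called 383 (107 and 276), and 36 genes were called in HEK293 and 931 in BJ-hTERT against 1534. With the replicate number as a block it called 560 (161 and 399), with 63 in HEK293, 1243 in BJ-hTERT and 0 for the change between times. Same-numbered arrays showed no shared deviation, which cannot exclude that the numbers mark pairs. Leaving out 1 array gave 591 to 766 genes in all, 172 to 255 higher, 419 to 511 lower, 62 to 84 in HEK293 and 1132 to 1576 in BJ-hTERT, with 0 to 0 for the change between times and for NUTM2 probe sets. Of 69 called genes in the text, 47 kept the call in all other settings and 68 with any 1 array left out, and 0 reversed. Of the genes that rose in both lines, whose line difference was not called, the sign turned for HDAC5 (0.18 with the median of probe sets, 0.018 with array weights), SOCS2 (0.056) and NUTM2B (1.3) with the median of probe sets, and ETV4 (-0.012 with quantile normalization, 0 with centred arrays). Without 1 array ETV4 ranged from -0.092 to 0.11, HDAC5 from -0.19 to 0.20, NUTM2B from -0.47 to 0.10 and SOCS2 from -0.27 to -0.03. The causes were not tested. The change between times could not be computed with only the 12 arrays of 24 h. Signal near background and 3 arrays per group limit small differences.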

Other observations

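In the fit over probe sets, the line difference was called for 21 of 40807 tested probe sets with no gene listed (0.0515%), for 297 of 213352 with 1 symbol (0.139%) and for 20 of 14446 with several symbols (0.138%). These shares were not tested against each other.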
